A study of Homo sapiens with 2 samples.

Results

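The 35 genes described here make, sense, take up or export sterols, or make fatty acids. They were listed by pathway, with earlier results of these data known, and all 35 were found by symbol among the 62700 genes of the gene table. The list holds 18 genes of sterol synthesis, 5 regulators, 3 genes of uptake and trafficking, 2 of efflux and 7 of fatty acid synthesis. They were measured in polyadenylated RNA of TCam-2, an established human testicular cancer cell line of the seminoma type, transduced to overexpress the gene DDX53, which codes for a DEAD-box helicase. The series holds this 1 group, in 2 replicates. Control cells, carrying a GFP construct or no construct, were not analysed here, so no value below is an effect of DDX53. Genes are compared with each other inside a library, and each gene is then set against itself in the other library.

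Cells make cholesterol from acetyl-CoA through mevalonate, farnesyl diphosphate, squalene and lanosterol. When the endoplasmic reticulum is poor in sterol, SCAP escorts the precursors of the SREBP transcription factors to the Golgi. There they are cleaved, and the released part enters the nucleus and turns on genes of synthesis and uptake. When sterol is plentiful, INSIG proteins hold SCAP back, and oxysterols activate the LXR receptors, whose targets include the exporters ABCA1 and ABCG1 and the ubiquitin ligase MYLIP. SREBP binds weakly alone, and the promoters of its targets commonly carry boxes for the cofactors NF-Y and Sp1 beside the sterol regulatory element.

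Promoters were read from RefSeq (GRCh38.p14), in windows of 250 bases before to 50 after each annotated start. Windows were held for 30 of the 35 genes (not for ABCG1, ACAT2, FASN, FDFT1 and SQLE). The stretches below show what NF-Y boxes in front of sterol genes look like, for 5 genes of synthesis and the transporter gene STARD4, beside 2 targets of LXR. They include the 3 stretches with the most boxes, so how common the box is must be read from the shares that follow. Each is written 5′ to 3′ on the gene's strand, lies before the RefSeq start and outside exons of GENCODE 29, and has CCAAT, or its reverse complement ATTGG, in capitals.
MSMO1 (chr4:165327443-165327622, plus strand): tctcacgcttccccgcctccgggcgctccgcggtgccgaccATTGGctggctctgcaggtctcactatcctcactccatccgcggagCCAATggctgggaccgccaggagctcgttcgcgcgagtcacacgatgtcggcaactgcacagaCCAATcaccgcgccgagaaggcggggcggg
MVD (chr16:88663162-88663297, minus strand): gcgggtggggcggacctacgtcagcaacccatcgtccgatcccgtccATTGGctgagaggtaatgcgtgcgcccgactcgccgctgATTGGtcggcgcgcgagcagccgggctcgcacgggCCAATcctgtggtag
NSDHL (chrX:152830813-152830966, plus strand): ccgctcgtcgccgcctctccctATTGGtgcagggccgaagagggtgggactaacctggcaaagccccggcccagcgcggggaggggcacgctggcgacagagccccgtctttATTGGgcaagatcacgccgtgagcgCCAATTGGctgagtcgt
DHCR7 (chr11:71448436-71448615, minus strand): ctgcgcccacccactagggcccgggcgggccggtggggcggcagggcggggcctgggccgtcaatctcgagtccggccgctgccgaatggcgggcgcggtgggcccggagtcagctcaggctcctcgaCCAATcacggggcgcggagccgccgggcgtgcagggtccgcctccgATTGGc
HSD17B7 (chr1:162790522-162790701, plus strand): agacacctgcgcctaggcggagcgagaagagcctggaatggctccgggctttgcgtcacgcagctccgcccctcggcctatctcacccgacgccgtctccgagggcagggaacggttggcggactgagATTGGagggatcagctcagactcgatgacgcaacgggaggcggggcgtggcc
STARD4 (chr5:111512591-111512770, minus strand): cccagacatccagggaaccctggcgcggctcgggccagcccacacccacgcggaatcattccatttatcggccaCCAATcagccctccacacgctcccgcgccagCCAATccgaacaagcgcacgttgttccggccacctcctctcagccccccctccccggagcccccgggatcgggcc
ABCA1 (chr9:104928238-104928405, minus strand): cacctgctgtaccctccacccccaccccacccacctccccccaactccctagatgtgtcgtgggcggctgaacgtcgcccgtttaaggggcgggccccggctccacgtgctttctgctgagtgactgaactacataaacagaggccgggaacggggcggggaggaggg
MYLIP (chr6:16128906-16129085, plus strand): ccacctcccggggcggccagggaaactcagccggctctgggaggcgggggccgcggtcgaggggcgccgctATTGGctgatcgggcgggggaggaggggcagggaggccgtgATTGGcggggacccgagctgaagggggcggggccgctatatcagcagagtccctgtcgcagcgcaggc

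The NF-Y box CCAAT, searched on both strands, lay in a window of 13 of the 15 sterol synthesis genes with one (86.7%). PMVK and CYP51A1 were without it. More than 1 box was found in 10 of the 15 (66.7%). Among 10415 genes detected here that have a window, 43.1% held the box and 16.2% held more than 1. Over all 27305 genes with a window, the shares were 39.7% and 12.9%. In the stretch printed for MSMO1 there were 3 boxes, as many as in that of MVD. The 4 boxes of NSDHL include a pair that overlap in the palindrome CCAATTGG. The stretch of ABCA1 had none, and that of MYLIP had 2. Among fatty acid genes, 4 of 6 held it (66.7%), namely ACLY, ACACA, SCD and FADS2. The windows of ACACA and FADS2 nearest to the start of the leading transcript lie 93955 and 11357 bases from it. The GC box GGGCGG, the letters of the Sp1 site, was in 29 of the 30 genes (96.7%), against 78.3% of detected genes. The E-box CACGTG was in 5 of 30 (16.7%), against 12.7%. The sterol regulatory element as TCACCCCAC was found in front of 1 member, SREBF2, 133 bases before its start and 27 bases from its NF-Y box. It was in 0.535% of all genes, and allowing any base at the fifth position (TCACNCCAC, which includes the first form) gave 1.39% of all genes and no further member. A match is a run of letters in this window and does not show binding. The lack of a match does not show that an element is absent, since only these letters in this window were searched.

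**Figure D1:**
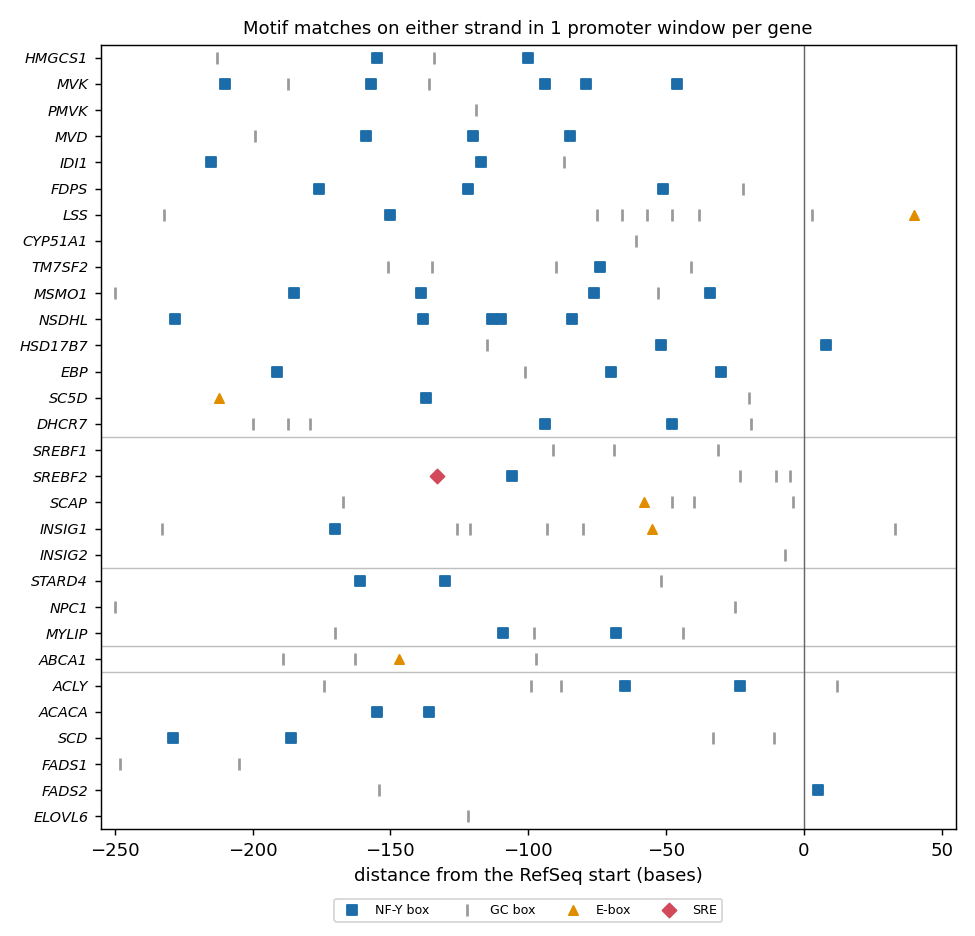
Matches to 4 motifs on either strand, by distance in bases from the RefSeq start, in 1 window for each of 30 genes. The window nearest the start of the gene's leading transcript is drawn, which for ACACA and FADS2 is still 93955 and 11357 bases from it. Squares mark the NF-Y box, bars the GC box, triangles the E-box and the diamond the sterol regulatory element. NF-Y boxes lie in nearly all rows of sterol synthesis (top block), with PMVK and CYP51A1 as the exceptions. They are also missing from SREBF1, SCAP, INSIG2, NPC1, ABCA1, ELOVL6 and FADS1.

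The libraries held 24137664 reads in genes in replicate 1 and 22198929 in replicate 2. DDX53, the gene of the construct, had 146 and 147 reads, or 6.05 and 6.62 CPM (counts per 1e6 reads in genes). All 7 markers listed for seminoma and primordial germ cells were detected, at 4582 and 4543 CPM in sum. Of 12 markers of testis somatic cells, liver, fat, fibroblasts and macrophages, 1 was detected, LUM, at 9.28 and 13.1 CPM. The other fibroblast marker, DCN, had 1 read in each library, and TTR, CD68 and PTPRC had none. Summed over the 12, the level was 10.5 and 14.1 CPM, and without LUM, left out after its value was seen, it was 1.20 and 0.991 CPM. Counts of the libraries differed by more than sampling noise (chi-square divided by degrees of freedom 4.32, from 17738 genes), so each was kept as a sample. Nothing in the labels says that the replicates came from separate cultures, so the spread between them may be technical.

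Every one of the 35 genes was detected (neither library under 1 CPM), against 21.7% of all 62700 genes. Together they took 0.507% of the reads in replicate 1 and 0.550% in replicate 2. Levels are compared between genes in TPM, which is per length, summed over a gene's transcripts. By median TPM the branches ran from fatty acid synthesis (109 ± 12.6) over sterol synthesis (57.5 ± 3.76), the regulators (23.6 ± 1.95) and uptake (13.6 ± 1.10) to efflux (3.84 ± 0.514), each with the SD of the branch median over the libraries (n = 2). The order of the branches was the same in both libraries. Cholesterol export was the lowest branch in RNA, with a median 0.0668 times that of sterol synthesis. Within branches the spread was wide, from 5.68 to 334 TPM in sterol synthesis and from 16.7 to 252 TPM in fatty acid synthesis.

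**Figure D2:**
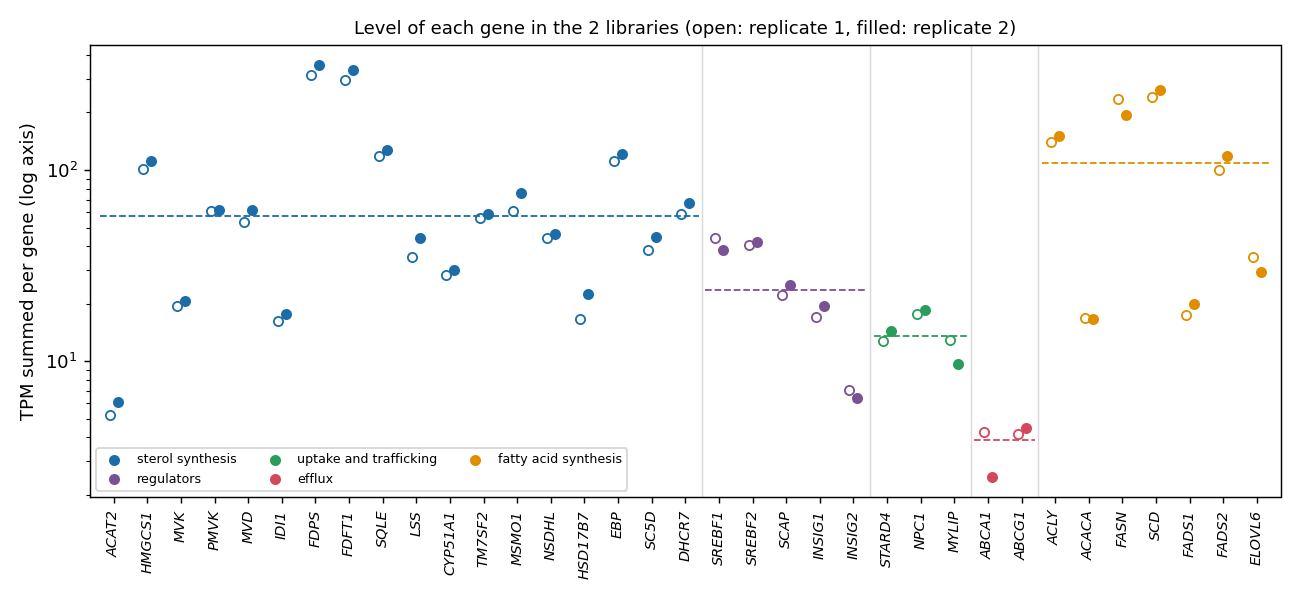
TPM summed per gene for the 35 genes in each library, on a log axis, with the branch median of the means as a dashed line. FDPS, FDFT1, SCD and FASN lie highest and ABCA1 and ABCG1 lowest, and the open and filled points of a gene lie close together beside the distances between genes.

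The first steps of sterol synthesis lead from acetyl-CoA to farnesyl diphosphate. ACAT2 joins 2 acetyl-CoA in the cytosol, and was the lowest member of the branch, with 5.24 TPM in replicate 1 and 6.11 TPM in replicate 2. HMGCS1, which makes HMG-CoA, was at 101 and 111 TPM. The kinases that follow were unequal, MVK (mevalonate kinase) at 19.5 and 20.7 TPM and PMVK (phosphomevalonate kinase) at 61.3 and 61.6 TPM. The libraries lay closer together for PMVK than for any other of these steps. MVD, the decarboxylase, was at 53.4 and 61.6 TPM. FDPS, which makes farnesyl diphosphate, had the highest summed TPM of all 35 genes, at 315 and 354 TPM. Models without a coding sequence held 25.8% of it in replicate 1 and 25.9% in replicate 2, against 2.06% and 1.66% for FDFT1. The first place of FDPS includes these models. FDPS stood 16.1 times above MVK in replicate 1 and 17.1 times in replicate 2, or 11.1 and 11.3 times in reads per kilobase of transcript. The 8 annotated pseudogenes of FDPS had 3 and 2 reads in all.

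The step from farnesyl diphosphate to squalene commits synthesis to sterols. FDFT1, squalene synthase, was at 295 and 335 TPM, a mean of 315 ± 27.8 (SD, n = 2). FDPS, at 334 ± 27.3 TPM (SD, n = 2), was a little above it in both libraries. So it was in CPM per kilobase of transcript, at 218 against 210 in replicate 1 and 244 against 240 in replicate 2. The length used there is weighted by the TPM of the same transcripts, so this is no separate check of the order. In CPM not divided by length, FDFT1 was higher, at 391 and 441 against 240 and 270. The order in coding models alone was not worked out. SQLE, squalene epoxidase, followed at 118 and 128 TPM, and LSS, which closes the ring to lanosterol, stood lower at 35.1 and 43.9 TPM. The demethylation of lanosterol was represented by TM7SF2 (56.2 and 58.7 TPM), a reductase, by MSMO1 (60.9 and 76.1 TPM), the methyl oxidase, by NSDHL (44.0 and 46.3 TPM), a dehydrogenase, and by HSD17B7 (16.7 and 22.6 TPM), a ketoreductase. MSMO1 was the highest and HSD17B7 the lowest of these 4 in both libraries. SC5D, a desaturase, was at 38.1 and 44.4 TPM, and DHCR7, the reductase that yields cholesterol, at 58.7 and 66.9 TPM.

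Reads and TPM parted in 3 sterol genes by over 4-fold, and their levels are uncertain. The reads a gene's TPM predicts were worked out from its matched transcripts' TPM and lengths. Transcripts outside GENCODE 29 are missing from that TPM, and their part in these gaps was not tested. CYP51A1, the lanosterol demethylase, had 40 and 23 reads, 0.0275 times the number its TPM predicted in replicate 1, while its TPM was 28.4 and 30.1. In GENCODE 29, 79.4% of its exonic length lies in exons of other genes on the same strand. EBP, the sterol isomerase, had 0.232 times the predicted reads in replicate 1, with 112 and 121 TPM and 29.5 and 30.8 CPM. IDI1, the isopentenyl diphosphate isomerase, had 4.87 times the predicted reads, with 16.3 and 17.6 TPM and 95.9 and 118 CPM. Neither EBP nor IDI1 shares exons with a gene on the same strand in that annotation. The other 32 genes had 0.558 to 1.996 times the predicted reads in replicate 1. The lowest of these, ACAT2, has 52.3% of its exonic length opposite exons of other genes, among them TCP1, which had 15599 and 15109 reads. The libraries were prepared to keep the strand, but how the reads were counted is not given in the sources used here.

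Among the regulators, the SREBP genes stood at like levels in TPM summed over transcripts. SREBF2, which mainly drives sterol genes, had 40.7 and 42.2 TPM, and SREBF1, which mainly drives fatty acid genes, had 44.2 and 38.1 TPM. The ratio of SREBF2 to SREBF1 was 0.921 in replicate 1 and 1.11 in replicate 2, so in summed TPM neither was higher in both. In reads per kilobase of transcript the ratio was 1.01 and 1.24, with SREBF2 higher in both. Models without a coding sequence held 34.1% and 27.0% of the summed TPM of SREBF1, against 0.308% and 0.642% for SREBF2. The like levels in summed TPM include these models. SREBF1 makes its SREBP-1a and SREBP-1c forms from separate starts. Its leading protein-coding transcripts, SREBF1-202 (1177 codons) and SREBF1-201 (1147 codons), begin within 15 bases of each other, and held 30.3% and 18.5% of its TPM in replicate 1 and 33.8% and 19.3% in replicate 2. Between them ranked SREBF1-216, a retained-intron model, with 25.6% and 19.3%. SREBF1-206, a partial coding model that begins 13384 bases further downstream, held 2.21% and 4.47%. In TPM, SREBF1-202 was at 13.42 and 12.89 and SREBF1-201 at 8.17 and 7.37. The leading coding transcript of SREBF2, SREBF2-201, was above each of them in both libraries, at 39.96 and 41.23 TPM. SCAP stood at 22.2 and 25.0 TPM. INSIG1, itself a target of SREBP, was at 16.9 and 19.4 TPM, above INSIG2 at 7.05 and 6.41 TPM, by 2.40 times in replicate 1 and 3.02 times in replicate 2.

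STARD4, which moves cholesterol between membranes, was at 12.8 and 14.4 TPM. NPC1, which releases it from lysosomes, was at 17.6 and 18.4 TPM. MYLIP, which marks lipoprotein receptors for degradation, was at 12.9 and 9.68 TPM. The levels of the 3 were within a narrow range. Both exporters were far lower: ABCA1 was at 4.24 and 2.49 TPM and ABCG1 at 4.17 and 4.47 TPM. Which exporter was higher thus differed between the libraries.

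Fatty acid synthesis starts with ACLY, which makes cytosolic acetyl-CoA and was at 140 and 150 TPM. ACACA, the carboxylase that forms malonyl-CoA, was the lowest member of this branch, at 16.9 and 16.6 TPM. FASN, the synthase, was at 235 and 195 TPM, and SCD, which puts in the first double bond, at 240 and 263 TPM. SCD at 252 ± 16.5 TPM and FASN at 215 ± 28.2 TPM (SD, n = 2 each) had the highest summed TPM of the branch, SCD above FASN in both libraries. The place of FASN rests partly on short models: its full-length transcript FASN-201 alone held 122.7 and 127.3 TPM. This is below the TPM of ACLY summed over its transcripts, of which the leading one, ACLY-201, held 56.2 and 59.8 TPM. ELOVL6, an elongase, was at 34.9 and 29.4 TPM. The neighbouring desaturase genes of chromosome 11 were far apart in level. FADS2 (chr11:61792980-61867354, plus strand) was at 100 and 118 TPM, and FADS1 (chr11:61799625-61829318, minus strand) at 17.5 and 20.0 TPM, a ratio of 5.73 in replicate 1 and 5.91 in replicate 2. Their exons overlap on opposite strands over 4.44% of the exonic length of FADS2 and 4.79% of that of FADS1.

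The libraries were then set against each other within each gene, in CPM. The genes were proposed with this contrast in view, so the differences describe these 2 libraries and carry no test. Of the 35 genes, 28 were higher in replicate 2, where 47.8% were among the 13898 genes whose mean reached 1 CPM. The 95% Wilson intervals of the 2 CPM values were apart, with replicate 2 higher, in 17 of the 35, where this held for 6.37% of those genes. Replicate 2 was lower with intervals apart in 2 of the 35, against 7.54%. High genes have narrower intervals. Among the 33 whose mean reached 10 CPM the counts were the same, 17 and 2, against 8.34% and 10.0% of 9389 genes. Of these 33, 27 were higher in replicate 2, against 48.2%. A log2 difference of at least 0.2 was seen in 9 of the 35 (9.42% of the 13898 genes) and of -0.2 or lower in 3 of the 35 (11.1%). At a mean of 10 CPM the counts were 9 and 2 of 33, against 5.28% and 6.19%. Since the list was proposed with these values in view, nothing is read from the counts. The median log2 difference, log2((CPM + 1)/(CPM + 1)), was 0.13 over the 35 genes and -0.01 over all 13898. Of the 12 markers of other cell types, LUM was also higher in replicate 2, while the sum of the other 11 was lower, as given above. Of the 7 seminoma and germ cell markers, 2 were lower in replicate 2 with intervals apart and 0 were higher. These were PRDM1, at 95.8 and 84.1 CPM, and LIN28A, at 487 and 448 CPM. The part of cell types in these differences was not tested. In bulk RNA, a change in the share of cells and a change in RNA per cell cannot be told apart, nor can culture, preparation and sequencing of a library.

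**Figure D3:**
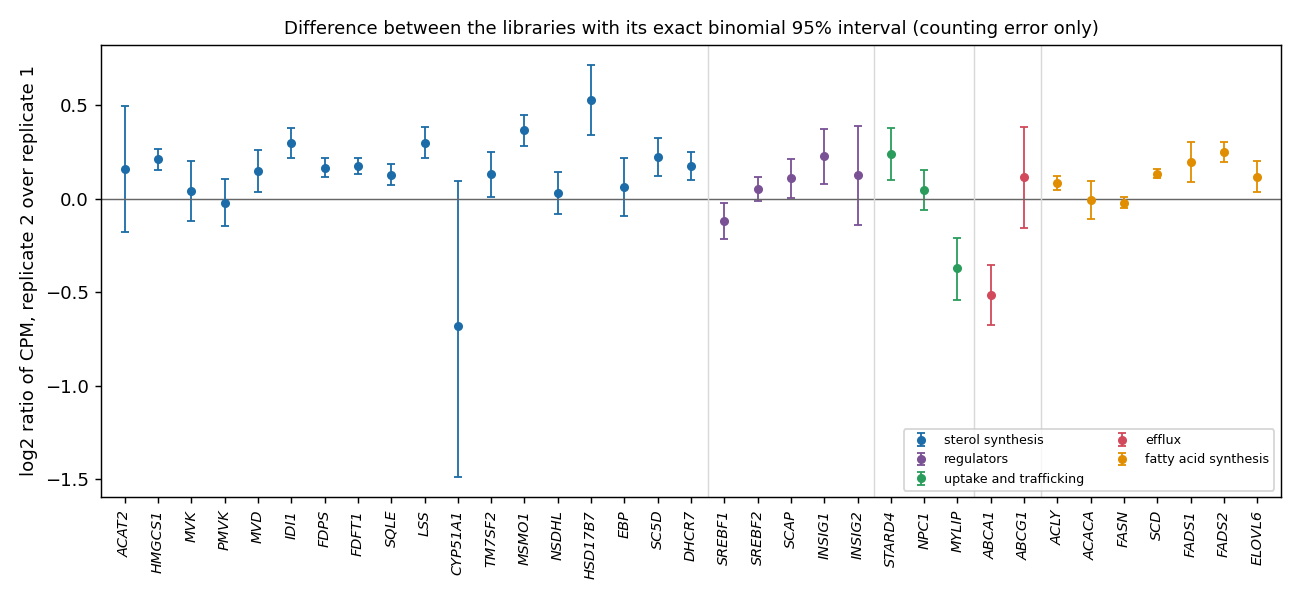
Log2 ratio of CPM, replicate 2 over replicate 1, for each of the 35 genes, with its exact binomial 95% interval for counting error. HSD17B7 is the highest point at 0.53, ABCA1 (-0.51) and MYLIP (-0.37) lie below 0 with intervals clear of it, as does SREBF1 (-0.12), and the interval of CYP51A1, which rests on 40 and 23 reads, is the widest.

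The genes of sterol synthesis had 43474 reads in replicate 1 and 45514 in replicate 2, or 1801 and 2050 CPM in sum. The log2 ratio of the sums was 0.19 (exact binomial 95% interval, 0.17 to 0.21). The branch was higher by 13.8% in replicate 2. Of its 18 genes, 16 went in that direction and 10 had intervals apart, against 47.8% and 6.37% of the 13898 genes. The list was proposed with these values in view, so nothing is read from these counts. The parts before and after squalene synthesis had like log2 ratios, 0.18 (0.15 to 0.21) for 7 genes and 0.19 (0.17 to 0.21) for 11. HSD17B7 was furthest apart, at 17.2 CPM (Wilson interval, 15.6 to 18.9) and 24.8 CPM (22.8 to 26.9), a 1.44-fold difference. Its 3 annotated pseudogenes had 13 and 4 reads in all. MSMO1 was next, at 88.5 CPM (84.8 to 92.3) and 114 CPM (109.7 to 118.5), 1.29-fold. LSS, at 95.1 CPM (91.3 to 99.1) and 117 CPM (112.7 to 121.7), and IDI1, at 95.9 CPM (92.1 to 99.9) and 118 CPM (113.6 to 122.6), were each 1.23-fold higher. SC5D, HMGCS1, DHCR7, FDFT1, FDPS and SQLE followed, with log2 ratios from 0.22 to 0.13. MVD, TM7SF2 and ACAT2, with log2 ratios of 0.15, 0.13 and 0.16, had overlapping intervals. The binomial interval of the ratio lay above 0 for MVD (0.03 to 0.26) and TM7SF2 (0.01 to 0.25). It spanned 0 for ACAT2 (-0.18 to 0.50). EBP, MVK and NSDHL were nearer to 0, at 0.06, 0.04 and 0.03. PMVK, at 44.9 and 44.3 CPM, and CYP51A1 were the 2 genes not higher in replicate 2 in reads, and both turned in TPM, with log2 ratios of 0.01 and 0.09.

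The regulators as a group were near level, with 8434 and 8006 reads and a log2 ratio of 0.05 (0.00 to 0.09). INSIG1 alone had intervals apart, at 30.2 CPM (28.1 to 32.5) and 35.4 CPM (33.0 to 37.9). SREBF1 was at 79.6 CPM (76.1 to 83.2) and 73.3 CPM (69.9 to 77.0), lower in replicate 2 with overlapping intervals, while the binomial interval of its log2 ratio, -0.21 to -0.02, did not reach 0. SREBF2 was at 167 and 173 CPM, SCAP at 63.0 and 67.9 CPM and INSIG2 at 9.86 and 10.8 CPM. For SCAP too the binomial interval of the log2 ratio, 0.006 to 0.213, did not reach 0. In TPM the direction of INSIG2 turned, with a log2 ratio of -0.14.

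Genes of uptake and efflux went both ways. STARD4 was at 33.6 CPM (31.4 to 36.0) and 39.7 CPM (37.2 to 42.4), higher in replicate 2 with intervals apart. MYLIP was at 29.9 CPM (27.8 to 32.2) and 23.1 CPM (21.2 to 25.2), 0.773 times as high. ABCA1 was at 33.8 CPM (31.6 to 36.2) and 23.7 CPM (21.8 to 25.8), 0.700 times as high and the lowest ratio among genes with intervals apart. NPC1, at 61.2 and 63.2 CPM, and ABCG1, at 9.65 and 10.5 CPM, had overlapping intervals. The efflux sum was lower in replicate 2 by a log2 ratio of -0.35 (-0.49 to -0.21), which rests on ABCA1: ABCG1 alone gave 0.11. Of 8 further genes listed as LXR receptors, RXR receptors and LXR targets, 5 were detected, and none had intervals apart. Most of the 5 are receptors rather than targets. The median log2 difference of the 5 was -0.03. For an LXR receptor the binomial interval of the log2 ratio, -0.29 to -0.01, lay wholly on the lower side.

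Fatty acid genes, with 66524 and 65097 reads, were higher in replicate 2 by a log2 ratio of 0.09 (0.07 to 0.11). Intervals were apart with replicate 2 higher in 5 of 7, against 8.34% of the 9389 genes whose mean reached 10 CPM. FADS2 led with 225 CPM (218.9 to 230.9) and 267 CPM (260.8 to 274.4), 1.19-fold. FADS1 was at 57.1 CPM (54.2 to 60.2) and 65.4 CPM (62.1 to 68.8), 1.14-fold. SCD, the member with the most reads, was at 1018 and 1119 CPM, and ACLY and ELOVL6 were 1.06- and 1.09-fold higher in replicate 2. The TPM table turned the direction of ELOVL6, with a log2 ratio of -0.25 against 0.12 in reads. FASN, at 814 CPM (802.2 to 825.0) and 801 CPM (789.6 to 813.1), and ACACA, at 68.2 and 67.8 CPM, were level. The sterol ratio exceeded the fatty acid ratio by 0.10 on the log2 scale (0.07 to 0.12, from the counting error of both sums). Without FASN, chosen after its value was seen, the gap was 0.05.

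**Figure D4:**
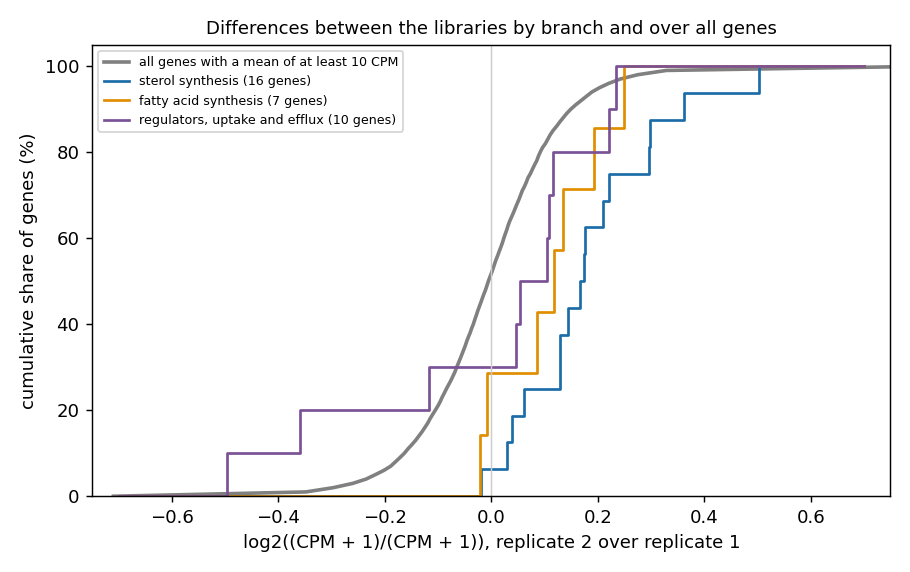
Cumulative share of genes in percent against the log2 difference between the libraries, for genes whose mean reached 10 CPM: 16 genes of sterol synthesis, 7 of fatty acid synthesis, 10 other members, and all 9389 genes in grey. The sterol curve lies to the right of the grey curve for most of its length, and the curve of the 10 other members starts left of it, with ABCA1, MYLIP and SREBF1.

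A further 47 genes of the pathways, listed beside the members, were read in the same way. ABCG5, ABCG8 and ABCG4, sterol transporters of the ABCG family, were not detected, with 2 and 2, 3 and 0, and 10 and 11 reads. Over the 44 detected genes the median log2 difference was 0.02, with 28 above 0, against 47.8% of the 13898 genes. Intervals were apart with replicate 2 higher in 6 and lower in 2, against 6.37% and 7.54%. ERG28, a scaffold of the sterol demethylation complex (67.9 and 76.4 CPM), was among the 6. So were ACSS2, which makes acetyl-CoA from acetate (59.2 and 66.6 CPM), and HSD17B12, of fatty acid elongation (83.4 and 97.4 CPM). The others were ELOVL7, ACSL1 and NPC2, with log2 ratios of 0.41, 0.47 and 0.15. NPC2, which hands cholesterol to NPC1, was the highest of the 47 by TPM, at 416 ± 27.7, before TECR, an enoyl reductase, at 246 ± 6.59 (SD, n = 2 each). In CPM per kilobase the order turned, with TECR above NPC2 in both libraries, and NPC2 had 0.455 times the reads its TPM predicted in replicate 1. MID1IP1, an activator of acetyl-CoA carboxylase, was lower in replicate 2 with intervals apart, at 112 and 101 CPM.

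Transcript use, which the list was not chosen on, was compared last. Of the 35 genes, 33 had more than 1 matched transcript, and the leading transcript was the same in both libraries in all 33. It differed in 11.7% of 11774 genes with a summed TPM of at least 1 in both. Those genes were not matched in level to the 35 members, whose median was 41.2 TPM. The median share of the leading transcript was 73.2% in replicate 1 and 70.9% in replicate 2, and in 8 genes it was over 90% in both. SREBF2-201 held 98.1% and 97.8%, and FADS1-201 held 96.5% and 95.6%. Other genes were spread over several models. SCAP differed most among protein-coding forms: SCAP-201 held 28.7% and 63.7%, and SCAP-216, whose coding sequence has the same 1279 codons, held 27.1% and 0%. In INSIG2 the short model INSIG2-202, annotated for nonsense-mediated decay, held 42.2% in replicate 1 and 0% in replicate 2. In FASN the full-length FASN-201 (2511 codons) held 52.3% and 65.3%, while the 681-base model FASN-204 held 37.5% and 31.7% and the 951-base FASN-202 held 7.44% and 0%. Short models carry many TPM for few reads, and the summed TPM of FASN had a log2 ratio of -0.27 while its reads had one of -0.02. The depth per transcript is unknown, so these shares have no interval.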

How the data were processed

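RNA was made into strand-specific libraries from polyadenylated RNA, per the labels' protocols. Trim Galore 0.6.10, STAR 2.7.11a, Salmon 1.10.2, DESeq2 and GRCh38 are named in the submitters' processing notes; the annotation and the counting are not given in the sources used here. The authors deposited TPM per transcript, and per gene a signal, each read count over a factor common to its library. Whole reads were recovered by dividing by the value of 1 read (1.02 in replicate 1, 1.12 in replicate 2), and 100% of the values above 0 were within 0.01 of a whole number of reads. Headers lack a name for the identifiers, and their names were assigned to the value columns in turn. CPM is relative to all reads in genes. The limit that a count of 0 allows, 3 reads, was 0.124 and 0.135 CPM. Intervals cover counting error only.

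Transcripts were assigned to genes by identifier through GENCODE 29 on GRCh38, which held 201667 of 251955 transcripts and 94.8% of TPM in each library. Coordinates are from GENCODE 29. All values of the columns were used, with 0 columns left out.

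With 1 library on each side no test was made. As an alternative, the exact binomial test on the recovered reads (edgeR 4.0.16, adjusted p under 0.05) called 2008 of 15299 genes, 1037 higher and 971 lower in replicate 2; it compares 2 libraries, not conditions. The steps were tested on simulated data with Poisson counting error only. The libraries here differed by more than that, so the simulation does not show how often intervals part at their spread. Members and lists were chosen with earlier results of these data known. Named were all members, and of the 47 other genes those with intervals apart, those not detected and the 2 highest in TPM; 1 gene that met this rule is not reported here. Alternatives covered scaling, pseudocount (0.1), filters, the TPM table, and members or libraries left out.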

Additional observations from a re-analysis of the deposited data

How the results depend on the processing

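No paired analysis was possible because all samples belong to 1 group. Scaling (TMM, DESeq2 1.42.0, median-centred or deposited factors) kept each branch ratio within its counting interval. With TPM summed per gene the log2 ratio was 0.16 for sterol synthesis (0.19 in reads), 0.013 for fatty acids (0.09) and -0.00144 for the regulators (0.05, a reversal), uptake went from 0.01 to -0.03, and the sterol ratio exceeded the fatty acid ratio by 0.15. For fatty acids, leaving out FASN, added after seeing the data, gave 0.12 in TPM and 0.13 in reads, so FASN carried most of the gap between the tables there; for the others the cause was not tested. Without the member with the most reads, efflux reversed to 0.11 (ABCG1 alone), fatty acids gave 0.062, and the sterol excess was 0.13; it was 0.053 without FASN. With MYLIP listed beside ABCA1 and ABCG1, the ratio of uptake was 0.12 and its median 15.8 TPM. In CPM per kilobase the branch medians were 34.3 for sterol synthesis, 16.9 for the regulators, 3.05 for efflux and 72.5 for fatty acids, by construction on another scale and in the same order. With either library left out, medians ranged from 54.8 to 60.1 TPM for sterol synthesis and from 3.48 to 4.20 TPM for efflux. The count of 28 higher members was 29 after centring. It was 28 in TPM with other members: ELOVL6 and INSIG2 turned lower and PMVK and CYP51A1 higher. Of the 35, 34 reached 5 CPM. The counting interval of ACAT2, with about 150 reads in each library, spans 0 and the ratio of its branch.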
